A study of Mus musculus with 17 samples.

Results

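Potassium channel genes were taken as the protein-coding genes of the bulk count files whose symbol starts with Kcn, except 1 that is not analysed here, and the same symbols were followed in the single-nucleus tables. The rule gave 93 of the 36293 genes listed, of which 21978 were protein-coding. They fall into 17 families by the channel they build, from 14 inward rectifiers, 14 K2P leak channels and 10 silent Kv subunits down to single-gene families. Of the 93, 92 were listed in at least 1 nuclei table and 77 in all of them. Another 5 genes with a Kcn symbol belong to other annotation classes and were not counted as members.

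Chronic unpredictable stress (CUS), 12 days with 3 different stressors per day, was compared with daily handling in male C57BL/6 mice (substrain C57BL/6J by the study's methods) without any transgene or drug. Total nuclear RNA of a medial prefrontal cortex (mPFC) punch was sequenced from 4 control and 5 CUS mice aged 90 days, taken after behavioural testing. Single nuclei of the neocortex were profiled by Drop-seq (sNuc Drop-seq) from another 4 control and 4 CUS mice aged 80 days, 24 h after the last stressor. Control mice were kept in another room than CUS mice, so room and stress cannot be told apart. The nuclei mice came from 2 batches with 2 control and 2 CUS mice in each, but the labels do not say which mouse was in which batch and give no litter, so no test here has a batch term, whereas the study's own nuclei tests had one.

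Potassium channels let potassium leave the cell and so set its resting potential, end its action potentials and limit how often it fires. Voltage-gated Kv channels are tetramers of pore subunits that work with auxiliary beta, KChIP or KCNE subunits, K2P channels leak at rest, and SK and BK channels open with calcium. Inward rectifiers include the GIRK channels, which open when GABA-B, serotonin, adenosine or other receptors release G-protein beta-gamma subunits.

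Bulk libraries held 26188825 to 30525015 reads per mouse. The nuclei tables held 40000 barcodes, of which 26698 nuclei passed the filters, with 1935 to 4235 nuclei and 4699542 to 12477099 UMIs (unique transcript molecules) per mouse, and 20 barcode sequences occurred in more than 1 mouse. Calls in nuclei depended strongly on CUS replicate 2: over the sum of all nuclei 1 gene was called with it and 828 genes without it. They are therefore given with and without that mouse. The mouse was singled out by this count of calls, so calls without it show how far results rest on 1 mouse and are no separate support. Striatal-like nuclei made up 6.70% of the nuclei labelled neocortex.

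In the mPFC 3 potassium channel genes were called higher with CUS and none was called lower. Of these, Kcnj9 and Kcnk4 are described here, a GIRK and a K2P subunit with log2 fold changes of 0.31 and 0.64. The calls are 3 of 79 members that passed the filter on low counts (3.80%), beside 606 of 18394 genes called in either direction (3.29%) and 1.16% called higher, by edgeR's quasi-likelihood test at a Benjamini-Hochberg adjusted p (FDR) below 0.05. The members' share was near that of all genes, and it was 0 without control replicate 2, CUS replicate 4 or CUS replicate 5. The 606 genes split into 214 above and 392 below control (2.13% lower), and scaling by library totals alone gave 203 above and 619 below. The other 14 members had at most 19 reads in any mouse and were not tested, and 1 of them had no read at all.

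Kcnj9 encodes GIRK3, a GIRK subunit that reaches the membrane together with other GIRK subunits. Its level in CPM (TMM-scaled counts per 1000000 counts of the tested genes) was 66.6, 62.3, 57.3 and 57.5 in the 4 control mice and 76.0, 74.3, 73.1, 74.9 and 80.1 in the 5 CUS mice. Every CUS mouse lay above every control mouse. The means were 60.9 ± 4.44 (SD, n = 4) and 75.7 ± 2.69 (SD, n = 5), a log2 fold change of 0.31 with a standard error of 0.06 and an edgeR FDR of 0.0162. An antisense gene, Gm36937, lies within Kcnj9 in the files' annotation, and whether strand was used in counting is not stated. Over the 9 fits that left out 1 mouse each, the log2 fold change stayed between 0.28 and 0.35 and the FDR between 0.00988 and 0.0525, and the call was lost without control replicate 2, CUS replicate 4 or CUS replicate 5.

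Kcnk4 encodes TRAAK, a leak channel opened by membrane stretch. It had 6.19, 5.83, 7.25 and 5.00 CPM in control mice and 9.85, 6.63, 8.76, 9.64 and 12.3 in CUS mice. Only CUS replicate 2 fell within the control range. The means were 6.07 ± 0.931 and 9.43 ± 2.03, a log2 fold change of 0.64 ± 0.16 (SE) with an edgeR FDR of 0.0465, between 0.0178 and 0.126 when a mouse was left out and below the threshold only without control replicate 3 or CUS replicate 2.

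**Figure D1:**
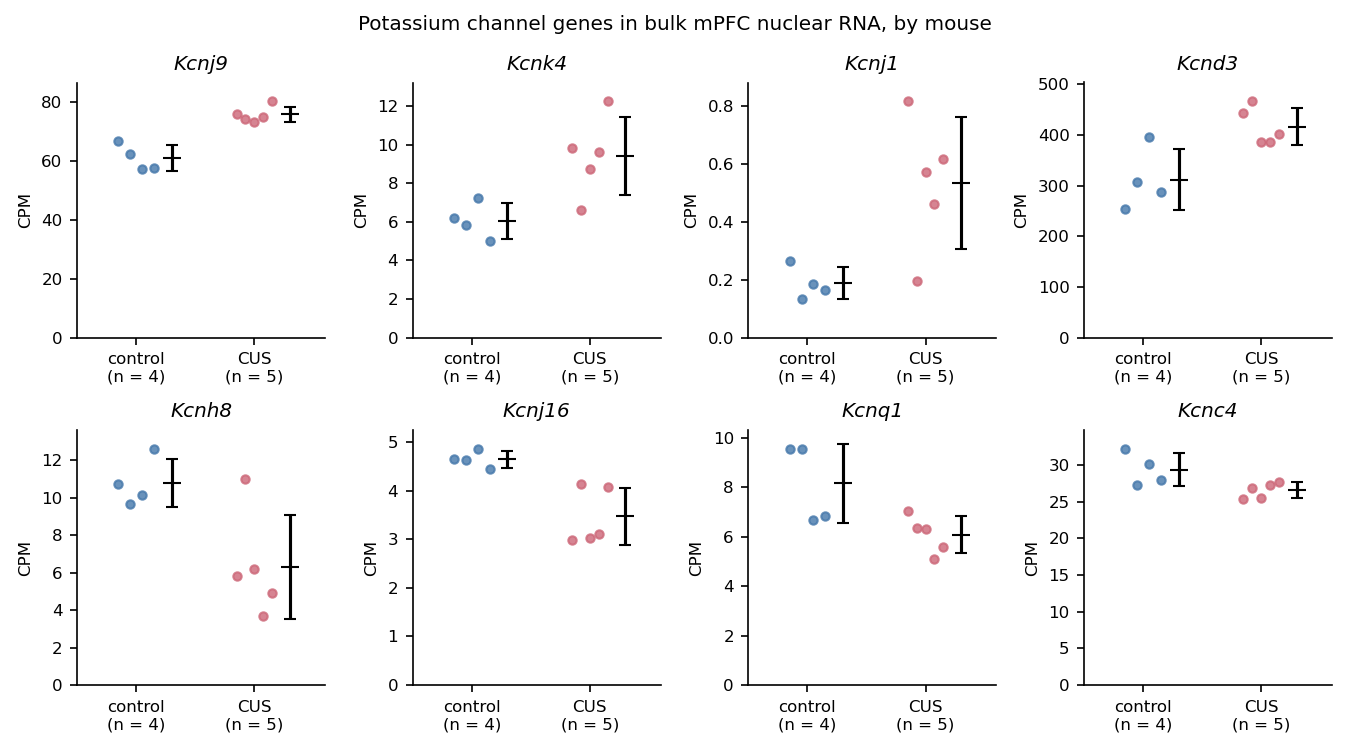
CPM (TMM-scaled, linear axis from 0) of 8 potassium channel genes in each bulk mouse, blue for control and red for CUS, with black bars for the mean and SD. The upper row holds 4 of the members with the smallest p among those above zero and the lower row the 4 among those below zero. In Kcnj9 all 5 CUS mice lie above the 4 control mice and in Kcnj16 all lie below them.

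The bases upstream of Kcnj9 and Kcnk4 are shown because both genes are short and rose together in bulk, as the 250 bases before the RefSeq start on the gene's strand (GRCm38.p6). Capitals mark 2 motifs, the TATA motif TATAAA and the GC box GGGCGG, searched on both strands.
Kcnj9, chr1:172329323-172329572, minus strand: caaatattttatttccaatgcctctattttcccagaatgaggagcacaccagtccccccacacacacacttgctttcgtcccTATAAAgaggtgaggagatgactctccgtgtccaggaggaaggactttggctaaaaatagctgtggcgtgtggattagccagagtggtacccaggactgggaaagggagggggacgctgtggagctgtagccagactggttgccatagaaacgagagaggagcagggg
Kcnk4, chr19:6934516-6934765, minus strand: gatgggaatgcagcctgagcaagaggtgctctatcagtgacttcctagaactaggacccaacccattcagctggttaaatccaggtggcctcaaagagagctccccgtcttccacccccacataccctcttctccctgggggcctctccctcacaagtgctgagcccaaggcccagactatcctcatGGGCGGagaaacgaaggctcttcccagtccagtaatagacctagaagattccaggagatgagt

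Kcnj9 holds TATAAA and Kcnk4 a GC box, so the pair has no such motif in common. Among all 32851 promoters listed, 12.4% hold TATAAA and 32.7% a GC box, and of the 68 members listed there 2 (2.94%) and 31 (45.6%) do. Neither holds the other motifs searched on both strands, the CRE TGACGTCA or its core TGACG (1.55% and 17.8% of all promoters), the EGR motif GCGNGGGCG (4.70%), the YY1 motif AAGATGGC (1.56%) and the E-box CACGTG (6.02%). The members' promoters had a median GC content of 58.8%, beside 52.4% over all promoters.

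The member with the next smallest p, Kcnj1, which encodes the kidney channel ROMK, had only 4 to 23 reads per mouse and stayed above the threshold (log2 fold change 1.51, edgeR FDR 0.0553). The 4 members with the smallest p among those below zero were Kcnh8, Kcnj16, Kcnq1 and Kcnc4, and none passed the threshold in edgeR's quasi-likelihood test. By edgeR's likelihood ratio test Kcnh8 (FDR 0.0251) and Kcnj16 (FDR 0.0412) were called lower. DESeq2 called Kcnj16 (FDR 0.0374) and Kcnq1 (FDR 0.0464) lower. Kcnh8, an ELK channel, had 10.7, 9.64, 10.1 and 12.6 CPM in control mice and 5.83, 10.96, 6.20, 3.68 and 4.92 in CUS mice, a log2 fold change of -0.78 with an edgeR FDR of 0.0778. CUS replicate 2 alone reached the control mice, and without it the log2 fold change was -1.06 with an edgeR FDR of 0.00935. In the 8 fits without another mouse the gene was not called, and the log2 fold change reached -0.63 and the edgeR FDR 0.176.

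Kcnj16 encodes Kir5.1, a partner subunit of glial inward rectifiers. It had 4.64, 4.62, 4.86 and 4.44 CPM in control mice and 2.99, 4.14, 3.03, 3.11 and 4.06 in CUS mice, with a log2 fold change of -0.42 and an edgeR FDR of 0.0845. Its groups did not overlap. Kcnq1, the Kv7.1 subunit, had a log2 fold change of -0.43 (edgeR FDR 0.0960) and lies over the antisense transcript Kcnq1ot1, which spans 29.0% of it. Kcnc4, the Kv3.4 subunit, had a log2 fold change of -0.15 (edgeR FDR 0.202).

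Marker genes of several cell types also differed between the groups in the same punches. The summed level of 5 oligodendrocyte precursor (OPC) markers was 327 to 403 CPM in control mice and 254 to 316 in CUS mice, with 5 of 5 below zero and 1 called lower, and every marker passed the filter on low counts. That of 8 astrocyte markers was 1653 to 2062 against 1540 to 1860 CPM, with 6 of 8 below zero and 2 called lower, and that of 6 excitatory markers 431 to 582 against 547 to 610, with 6 of 6 above zero and 1 called higher. Markers of mature oligodendrocytes lay below zero in 6 of 6 (median log2 fold change -0.51, 242 to 590 against 262 to 331 CPM) with none called, while microglial markers were divided, 3 above and 3 below (101 to 108 against 98.7 to 115 CPM). Of 9 striatal markers 8 lay below zero (median -0.88) and 1 was called higher, and their sum was 683 to 1181 CPM in control and 1167 to 1409 in CUS mice. Inhibitory markers lay below zero in 6 of 7 with none called (1723 to 2077 against 1537 to 1993 CPM), claustrum markers in 4 of 5 with 1 called lower and choroid plexus markers in 3 of 4 tested with 1 called lower, whereas endothelial markers lay above zero in 4 of 5 and mural markers in 4 of 6, with none called. Their part in the values of the members was not tested, and in bulk RNA fewer cells of a type and less RNA per cell cannot be told apart.

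Beyond the calls, members leaned upward in the mPFC: 49 of the 79 tested (62.0%) had a log2 fold change above zero, beside 51.3% of all genes tested, and their median was 0.08 beside 0.01. An unadjusted p under 0.05 was reached by 22 members (27.8%), 18 higher and 4 lower, beside 21.5% of all genes, 10.1% higher and 11.4% lower. Groups did not overlap for 4 members with CUS higher (5.06%, against 4.06% of genes), namely Kcnj9, Kcnk9, Kcnc2 and Kcnip2, and for 1 with CUS lower (1.27%, against 4.70%), Kcnj16. The reads of all 93 members made up 2.33% ± 0.139 (SD, n = 4) of control libraries and 2.35% ± 0.0959 (SD, n = 5) of CUS libraries, with an exact permutation p of 0.810. The lean was not seen over the sum of all nuclei, where 17 members lay above zero and 17 below (median -0.009). Members made up 1.50% ± 0.108 of UMIs in control and 1.35% ± 0.134 in CUS nuclei (SD, n = 4 each, exact permutation p 0.171). CUS replicate 1 was lowest at 1.17%, beside 1.36% to 1.49% in the other CUS mice.

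By family, silent Kv subunits form no channel alone and modify Kv2 channels. They lay above zero in 9 of 9 tested members, with a median of 0.25 and none called by edgeR's quasi-likelihood test. Among them Kcnf1 had 42.2 ± 3.78 CPM in control and 49.9 ± 3.73 in CUS mice (log2 fold change 0.24, edgeR FDR 0.0834), and Kcnv1 had 27.7 ± 4.12 and 34.3 ± 2.53 (0.31, edgeR FDR 0.0800). DESeq2 called both higher (FDR 0.0476 for Kcnf1 and 0.0432 for Kcnv1), and edgeR's likelihood ratio test called Kcnv1 (FDR 0.0364). Kcnq3, a Kv7 subunit, lay at 0.28 (edgeR FDR 0.0800). All 4 KChIP subunits and all 3 Kv1 beta subunits lay above zero, whereas 3 of the 4 SK channels lay below, and none of these was called. Over the sum of all nuclei, 1 KChIP subunit lay above zero and 3 below, and 1 Kv1 beta subunit above and 1 below. Kcnv1, the only silent subunit tested there, lay at -0.17, and the only SK channel tested lay below zero. Inward rectifiers were divided, with 6 of 13 tested members above zero, and so were K2P channels, with 4 of 10.

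Levels between genes were compared per kilobase of annotated span, since nuclear RNA carries introns. The highest bulk values were those of Kcnf1 (9.70 CPM per kb), Kcnip4 (8.11), Kcnj9 (7.84) and Kcna2 (5.79). Without the division by span, Kcnip4, the KChIP4 subunit of Kv4 channels, led all members with a mean of 9208 CPM over the 9 mice, and its log2 fold change was 0.03 (edgeR FDR 0.861). The members with the highest CPM in several other families were not called either: Kcnma1, the BK pore (0.15, edgeR FDR 0.319), Kcnh7, an ERG channel (-0.20, edgeR FDR 0.351), Kcnd2, the Kv4.2 pore (-0.15, edgeR FDR 0.262), Kcnq5 (-0.10, edgeR FDR 0.540) and Kcnb2, a Kv2 pore (0.03, edgeR FDR 0.911).

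The leaders of the remaining families by CPM were Kcnj3 (-0.18, edgeR FDR 0.433), Kcnk9, the TASK-3 leak channel (0.21, edgeR FDR 0.0813), Kcnc2, a Kv3 pore of fast-spiking neurons (0.19, edgeR FDR 0.0895), Kcnt2, a sodium-activated channel (-0.07, edgeR FDR 0.713), and Kcnab1, a Kv1 beta subunit (0.11, edgeR FDR 0.447). Those of Kcna6 (0.09, edgeR FDR 0.574), Kcnn2 (0.00, edgeR FDR 0.996), Kcne4 (-0.24, edgeR FDR 0.612) and Kcnu1 (-0.03, edgeR FDR 0.930) did not pass either. Kcnrg, a Kv regulator with 0.350 CPM on average, was below the filter.

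Across the sum of all nuclei of each mouse, no potassium channel gene was called. Of 5018 genes tested, 34 were members, and 1 gene (0.0199%) passed an edgeR FDR of 0.2, which was not a member. An unadjusted p under 0.05 was reached by 402 genes (8.01%) and by 5 members, and the likelihood ratio test and DESeq2 called 17 and 22 genes and 0 members each. Without CUS replicate 2, 10 of 34 members passed (29.4%), 7 lower and 3 higher, beside 16.2% of 5125 genes (6.46% lower and 9.70% higher). Kcnq1, Kcnd2, Kcnab1, Kcnj3, Kcnq5, Kcnip4 and Kcnh7 were lower (log2 fold change -0.46 to -0.27), and Kcnh3 (0.25) and Kcna2 (0.39) were among the higher ones. All 7 lower members span over 100 kb and the 3 higher ones less. With all mice in, 20 of the 34 members tested spanned over 100 kb, beside 1483 of 4994 genes with a known span. The part of gene size in these calls was not tested.

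The make-up of the nuclei also varied between the mice. Striatal-like nuclei were 9.88%, 7.38%, 8.78% and 8.42% of the nuclei of the control mice and 5.03%, 8.80%, 4.21% and 2.44% of those of the CUS mice, so that CUS replicate 2 lay among the control mice and the other CUS mice below them. Of 9 striatal markers 6 were tested over all nuclei and 5 lay below zero with none called, and their summed level was 1226 to 1307 CPM in control mice, 1648 in CUS replicate 2 and 835 to 1047 in the other CUS mice. Kcnab1, a Kv1 beta subunit, followed the same order, with 225 to 240 CPM in control mice, 294 in CUS replicate 2 and 157 to 182 in the others. Its log2 fold change over all nuclei was -0.21 (edgeR FDR 0.663). Kcnab1 kept this order within the sum of excitatory nuclei, at 154 to 170 CPM in control mice, 178 in CUS replicate 2 and 124 to 140 in the others. Within cortical inhibitory nuclei CUS replicate 2 was again highest (526 CPM), beside 357 to 401 in control mice and 276 to 394 in the other CUS mice. Kcnip2, which stood above Kcnab1 by its ratio in Striatal-like nuclei to the other named classes (5.44 against 5.09), lay above zero (0.14, edgeR FDR 0.696). Over all nuclei, excitatory markers lay above zero in 5 of 5 tested (579 to 641 CPM in control and 581 to 795 in CUS mice) and inhibitory markers below zero in 6 of 6 (1512 to 1844 against 1186 to 1669 CPM), with none called. The part of the make-up of the nuclei in the values summed over all of them was not tested.

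The 5 members under an unadjusted 0.05 included Kcna2, Kcnh3 and Kcnt1 above zero and Kcnj3 below. Kcna2, the Kv1.2 pore, had 97.8, 114, 111 and 96.3 CPM in control and 133, 110, 134 and 142 in CUS mice. CUS replicate 2 alone fell within the control range, and the log2 fold change was 0.31 (edgeR FDR 0.596). Kcnh3, an ELK channel of forebrain neurons, was without overlap at 58.9 ± 3.01 and 70.5 ± 3.40 CPM (0.26, edgeR FDR 0.596).

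Kcnj9, the clearest call in bulk, had 145, 124, 129 and 154 CPM in control nuclei and 197, 135, 128 and 134 in CUS nuclei. Only CUS replicate 1 lay above the control mice. Its log2 fold change was 0.11 (edgeR FDR 0.794) and turned to -0.059 without that mouse. Of the 34 members tested in both kinds of library, 22 (64.7%) had the same sign, beside 63.3% of the 4992 genes tested in both, and their log2 fold changes correlated with r = 0.62 across members (Spearman's rho 0.59), beside 0.34 (rho 0.35) across all those genes. Genes are not independent replicates, and the 2 kinds of library come from different mice, regions and protocols.

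The sign in nuclei went with gene size. Of 20 members that span over 100 kb, 6 lay above zero, with a median log2 fold change of -0.09, and of 14 shorter members 11 did, with a median of 0.14. Long genes as a whole had a median of -0.09 and shorter genes of 0.03. Span and log2 fold change had a rho of -0.62 over the members and of -0.49 over 4994 genes with a known span. In bulk the medians were 0.02 for 23 long and 0.10 for 56 shorter members, beside -0.05 and 0.02 over all genes tested. Whichever nuclei mouse was left out, the median of long members stayed below that of shorter ones, with a difference of -0.39 to -0.13 in log2 fold change. The part of transcript length, depth or RNA quality in this pattern was not tested.

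**Figure D2:**
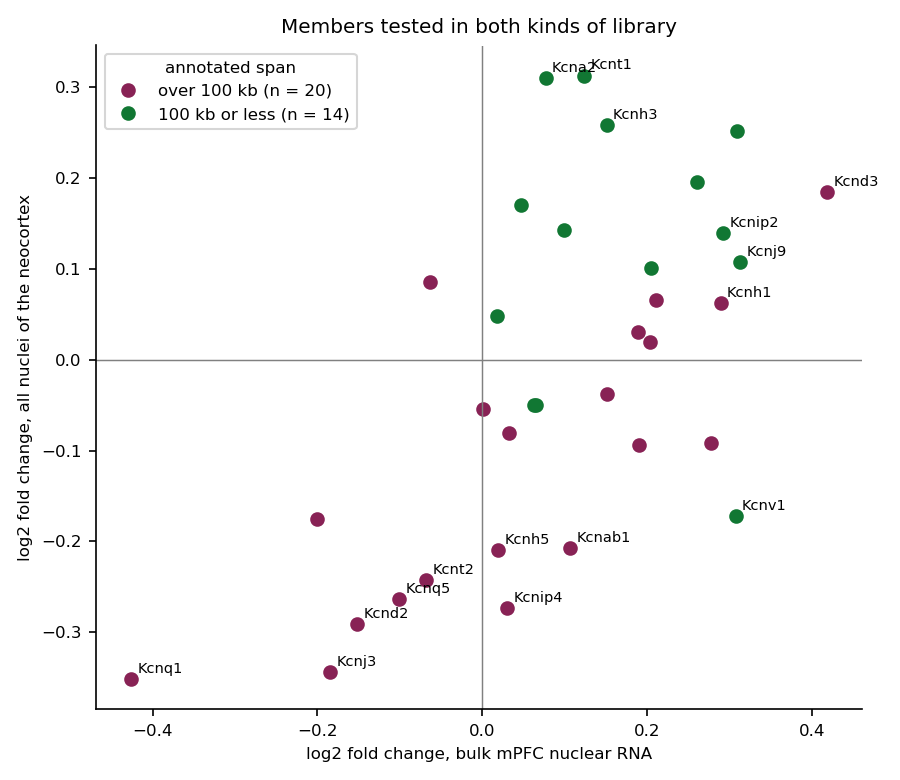
Each point is 1 of the 34 potassium channel genes tested in both kinds of library, with its log2 fold change (CUS against control) in bulk mPFC RNA on the horizontal axis and in the sum of all nuclei on the vertical axis. Colour gives the annotated span. Most genes over 100 kb (14 of 20) lie below zero in nuclei, and 11 of 14 shorter genes lie above it.

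The nuclei were grouped without the potassium channel genes, and 27 classes with over 200 nuclei were tested, so that levels of members across classes were not used to form them. Classes were named from marker lists where markers led them ("like") and otherwise by their leading gene ("led"). The levels by class are given in CPM of all UMIs of the class, as mean ± SD over the 8 mice, and are a description. A second level set beside a class is that of another named class with over 200 nuclei, and classes known by a leading gene can lie between. Oligo_Enpp6-like (78) and Endothelial-like nuclei (60) were too few and were not compared.

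Kcnc2, a Kv3 pore that lets neurons fire fast, stood at 2373 ± 335 CPM in Inh_Pv-like and 1412 ± 194 in Inh_Sst-like nuclei. The lowest of the 8 mice in the Pv-like class (1824) lay above the highest in the Sst-like class (1661). Kcnmb2, a BK beta subunit, was at 520 ± 137 CPM in Inh_Vip-like and 475 ± 94.4 in Inh_Pv-like nuclei, classes that did not differ beyond their spread, and at 1.83 in Ex_L2/3-like nuclei. Kcnip1, the KChIP1 subunit, was at 468 ± 127 CPM in Inh_Ndnf-like and 524 ± 162 in Inh_Vip-like nuclei and at 2.12 in Ex_L5/6-like nuclei.

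Among excitatory classes, Kcnh5, an EAG channel, was at 420 ± 89.9 CPM in Ex_L4-like nuclei and at 189 ± 61.1 in Ex_L5/6-like nuclei, higher in 8 of 8 mice, with Pamr1-led nuclei between them at 382 ± 87.6. Kcnv1, a silent subunit, reached 392 ± 112 CPM in Claustrum-like nuclei, higher than the 177 ± 25.7 in Ex_L2/3-like nuclei in 8 of 8 mice. Kcng1, another silent subunit, was at 57.0 ± 19.97 CPM in Ex_L5-like nuclei and 24.4 ± 3.45 in Striatal-like nuclei, and Kcnmb4, a BK beta subunit, at 128 ± 40.7 in Ex_Tshz2-like nuclei and 55.7 ± 22.0 in OPC-like nuclei, both higher in 8 of 8 mice.

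Kcnh4 was at 86.9 ± 22.9 CPM in Ex_L2/3-like and 81.1 ± 20.2 in Striatal-like nuclei, which did not differ beyond their spread. Kcnk9 was highest in Ex_L2/3-like nuclei (234 ± 14.6 CPM), within the spread of Claustrum-like nuclei (213 ± 61.3), and it led the members by its ratio to the other classes in Ex_Ndst4-like (204 ± 18.1) and Ex_L6-like nuclei (187 ± 12.2). In Ex_Ndst4-like nuclei that lead was narrow (ratio 2.23, beside 2.21 for Kcnd3), and the level of Kcnk9 there was 154 CPM at clustering resolution 0.6 and 175 at 1.5. Kcnk4, which rose in bulk, was at 102 ± 11.8 CPM in Ex_L4-like and 67.8 ± 22.4 in Ex_L5/6-like nuclei. Kcnip2, the KChIP2 subunit, was at 268 ± 34.9 CPM in Striatal-like and 155 ± 20.4 in Inh_Pv-like nuclei, higher in 8 of 8 mice.

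In glia Kcnh8 was at 312 ± 90.2 CPM in OPC-like nuclei and at most at 26.9 ± 29.4 in the 16 other named classes compared. Its level in OPC-like nuclei was 52.6 times the mean of those 16 classes, which do not include Oligo_Enpp6-like nuclei. Kcnj16 was shared by Astrocyte-like (112 ± 43.1) and OPC-like nuclei (109 ± 46.9 CPM) and was at 0 in Inh_Pv-like nuclei. Kcnk13, a leak channel known from microglia, was at 69.4 ± 56.7 CPM in Oligo_Opalin-like and 33.1 ± 19.9 in Microglia-like nuclei, which overlapped. The member that led the Microglia-like class, Kcnh3, was at 61.8 ± 39.5 CPM there, below its 91.3 ± 11.8 in Ex_L2/3-like nuclei, and that class also held Slc17a7, an excitatory marker, at 1.04 per 10000 UMIs against 2.15 in Ex_L2/3-like nuclei.

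**Figure D3:**
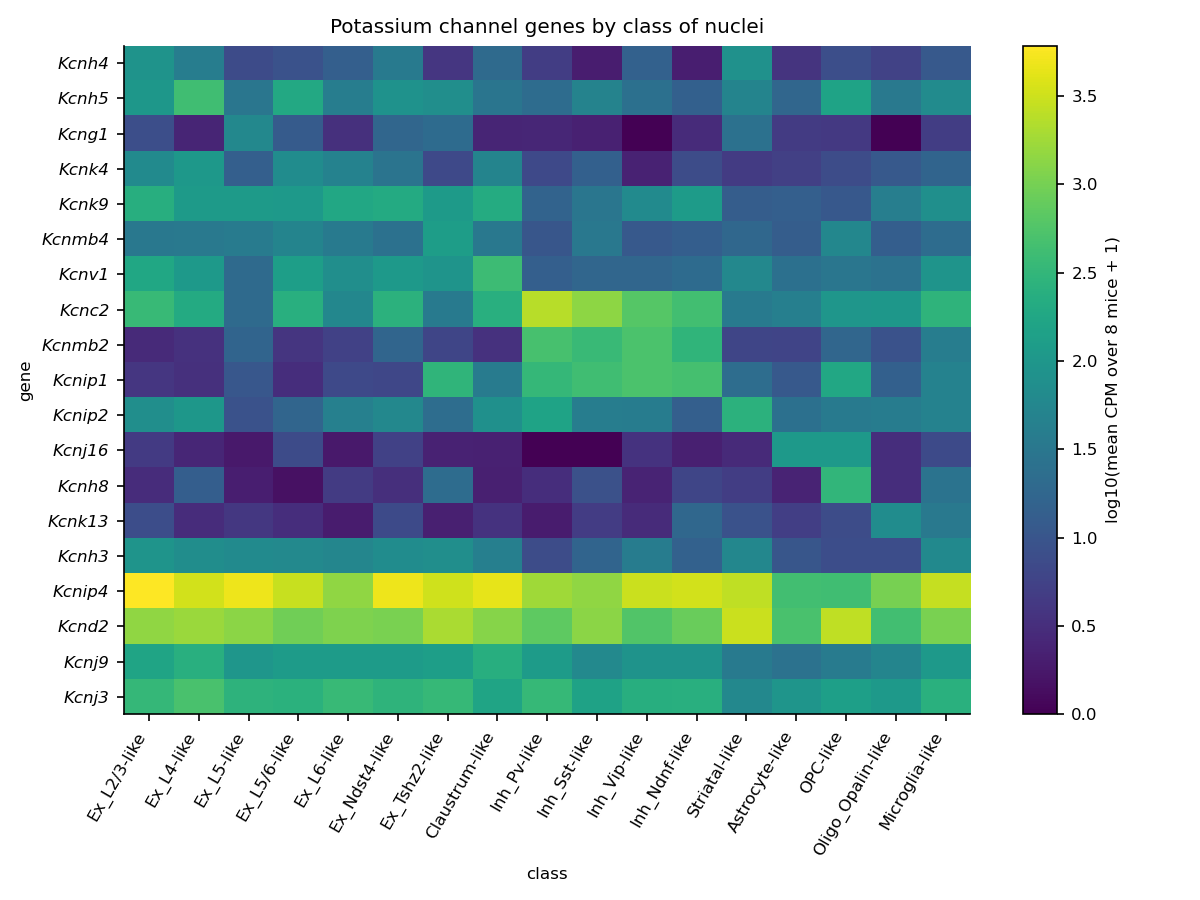
Level of 19 potassium channel genes (rows) in 17 named classes of nuclei (columns), as log10 of the mean CPM over 8 mice plus 1, from dark (low) to yellow (high). Kcnc2 is brightest in Inh_Pv-like, Kcnh8 in OPC-like and Kcnj16 in Astrocyte-like and OPC-like nuclei, while Kcnip4 and Kcnd2 are high across neuronal classes.

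Calls of members within classes were few, with Kcnj3 lower and Kcnip2 higher in CUS mice. Of 823 tests of members over the 27 classes, 3 passed an edgeR FDR of 0.2 (0.365%), beside 131 of 126199 tests of all genes (0.104%). These were Kcnj3 in Slc26a4-led and Ex_L4-like nuclei, lower with CUS, and Kcnip2 in Ex_L4-like nuclei, higher. The 1536 Slc26a4-led nuclei met the naming rule of no marker list, so their cell type is not named here. With the members kept in the clustering, Kcnj3 was called in Ex_L4-like and in Galnt14-led nuclei (-0.61), and no Slc26a4-led class was called. Among all genes tested in Slc26a4-led nuclei 0.295% were called, 0.129% lower and 0.166% higher, and in Ex_L4-like nuclei 0.548% were called, 0.339% lower and 0.209% higher. From 14 to 39 members were tested in a class, 54 in at least 1 class and 7 in every class. Without CUS replicate 2, 30 of 826 tests of members passed (3.63%), 24 of them lower, and 16 different members were among them, beside 1.19% of all tests (0.614% lower and 0.578% higher).

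Kcnj3 encodes GIRK1, the subunit that most neuronal GIRK channels share and through which GABA-B receptors hyperpolarise the cell. In Slc26a4-led nuclei it had 403, 515, 381 and 407 CPM in control and 201, 355, 279 and 282 in CUS mice (CPM of the genes tested in the class, TMM-scaled). All CUS mice lay below all control mice. The means were 427 ± 59.9 and 279 ± 63.0 (SD, n = 4 each), a log2 fold change of -0.63 ± 0.15 (SE) with an edgeR FDR of 0.109.

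In Ex_L4-like nuclei, where Kcnj3 had its highest level of all classes, it had 708, 820, 666 and 744 CPM in control and 319, 608, 545 and 443 in CUS mice. Again the groups did not overlap. The means were 734 ± 65.5 and 479 ± 126, a log2 fold change of -0.63 ± 0.16 (SE) with an edgeR FDR of 0.144. Leaving out 1 mouse at a time kept the direction in both classes, with log2 fold changes of -0.77 to -0.47 in Ex_L4-like and -0.76 to -0.50 in Slc26a4-led nuclei. The edgeR FDR in these fits ran from 0.0105 to 0.583 in Ex_L4-like and from 0.00833 to 0.604 in Slc26a4-led nuclei. The call was kept only without CUS replicate 2 or, in Slc26a4-led nuclei, control replicate 3. The Ex_L4-like call was also lost with a minimum of 1000 genes per nucleus and at clustering resolution 0.6. That in Slc26a4-led nuclei was lost with DESeq2 and without the doublet filter.

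Kcnip2 encodes KChIP2, which brings Kv4 channels to the membrane and slows their inactivation. In Ex_L4-like nuclei it had 92.5, 78.9, 107 and 90.1 CPM in control and 187, 130, 157 and 143 in CUS mice. All CUS mice lay above all control mice. The means were 92.2 ± 11.6 and 154 ± 24.3, a log2 fold change of 0.74 ± 0.19 (SE) with an edgeR FDR of 0.144, from 374 UMIs in all. Of the 8 fits without a mouse only that without CUS replicate 2 kept the call (0.79), and the edgeR FDR ran from 0.0414 to 0.650. The call was also lost with a minimum of 1000 genes per nucleus, at clustering resolution 0.6 and without the filter on low counts.

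**Figure D4:**
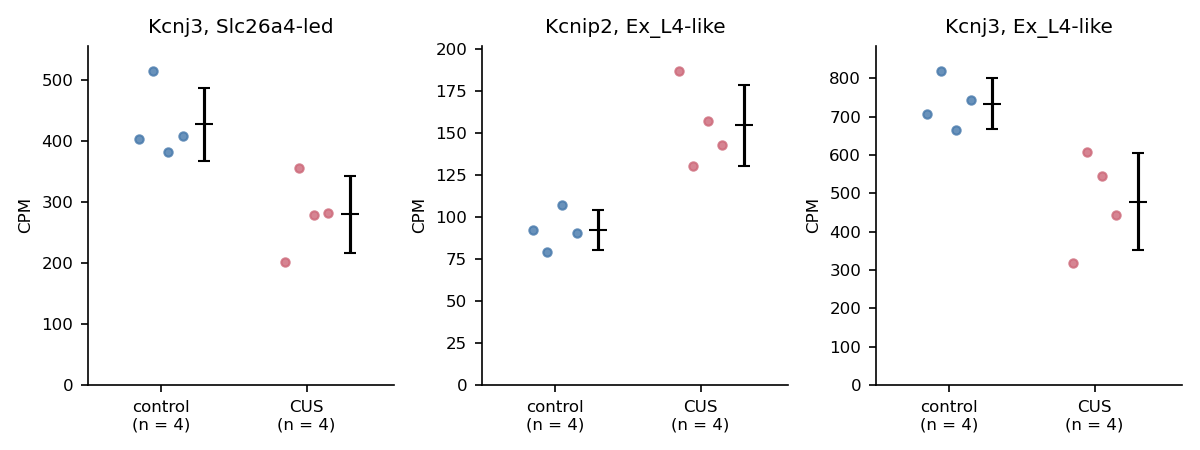
CPM (linear axis from 0) in each mouse for the 3 calls of potassium channel genes in classes, blue for 4 control and red for 4 CUS mice, with black bars for the mean and SD. In none of the 3 panels do the groups overlap, and CUS mice lie lower for Kcnj3 and higher for Kcnip2.

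Kcnj3 spans 162 kb and Kcnip2 24.2 kb. In the sum of excitatory nuclei 4 of 18 members over 100 kb and 14 of 17 shorter ones lay above zero, beside 25.7% and 58.5% of all genes. The part of gene size in the values of this pair was not tested. The upstream bases of Kcnj3 and Kcnip2, which moved in opposite directions in Ex_L4-like nuclei, are given in the same way (RefSeq, GRCm38.p6), with capitals for the GC box GGGCGG.
Kcnj3, chr2:55435720-55435969, plus strand: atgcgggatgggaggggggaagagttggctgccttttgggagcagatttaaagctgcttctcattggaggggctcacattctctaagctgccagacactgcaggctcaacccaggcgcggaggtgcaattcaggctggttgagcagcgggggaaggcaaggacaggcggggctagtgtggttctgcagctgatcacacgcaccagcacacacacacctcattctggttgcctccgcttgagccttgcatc
Kcnip2, chr19:45816064-45816313, minus strand: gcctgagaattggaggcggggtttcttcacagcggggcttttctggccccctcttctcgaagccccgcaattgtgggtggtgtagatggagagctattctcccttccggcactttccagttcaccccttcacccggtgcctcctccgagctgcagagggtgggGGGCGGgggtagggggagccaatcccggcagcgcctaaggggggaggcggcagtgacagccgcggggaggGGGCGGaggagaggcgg

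Kcnip2 holds 2 GC boxes and Kcnj3 none of the motifs searched. The 250 bases of Kcnip2 are 66.8% G or C with 15 CpG sites, and those of Kcnj3 58.4% with 7, beside a median of 52.4% and 6 over all promoters.

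Across all 27 classes Kcnj3 lay below zero in 22 and above in 5, and in 13 classes every CUS mouse was below the control mean while in 0 classes every CUS mouse was above it. The classes share the same 8 mice and are not independent. Kcnj3 was followed in every class because the study's supplementary data, from the same mice, list it for several classes. The counts over classes are therefore a description and no separate support. Among excitatory classes its log2 fold change was -0.55 in Ex_L5-like (edgeR FDR 0.557), -0.45 in Ex_L6-like (edgeR FDR 0.718), -0.42 in Ex_L2/3-like (edgeR FDR 0.345), -0.37 in Ex_Ndst4-like (edgeR FDR 0.571), -0.31 in Ex_L5/6-like (edgeR FDR 0.838) and -0.11 in Ex_Tshz2-like nuclei (edgeR FDR 0.993). In cortical inhibitory classes it was -0.64 in Inh_Vip-like (edgeR FDR 0.995, from 118 UMIs), -0.23 in Inh_Pv-like (edgeR FDR 0.961), -0.15 in Inh_Sst-like (edgeR FDR 0.982) and 0.02 in Inh_Ndnf-like nuclei (edgeR FDR 0.997). Without CUS replicate 2, Kcnj3 was also called lower in Ex_L2/3-like (-0.58, edgeR FDR 0.0587) and Ex_L6-like nuclei (-0.57, edgeR FDR 0.149), and without CUS replicate 3 in Ex_L5-like nuclei (-0.77, edgeR FDR 0.111).

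Outside cortical neurons Kcnj3 was at -0.62 in Claustrum-like (edgeR FDR 0.728), -0.33 in Striatal-like (edgeR FDR 0.939), -0.36 in Astrocyte-like (edgeR FDR 0.914), -0.62 in Oligo_Opalin-like (edgeR FDR 0.9995), 0.21 in OPC-like (edgeR FDR 0.990) and 0.29 in Microglia-like nuclei (edgeR FDR 0.9996). None of these passed. Astrocyte-like and Oligo_Opalin-like nuclei held 149 and 91 Kcnj3 UMIs, against 1762 in Ex_L4-like nuclei, and UMIs of free RNA were not separated from those of the glial nuclei, so these values are not read as changes in glia. The other 9 classes, named by a leading gene and not called, ranged from -0.53 in Ctgf-led to 0.29 in C130073E24Rik-led nuclei.

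**Figure D5:**
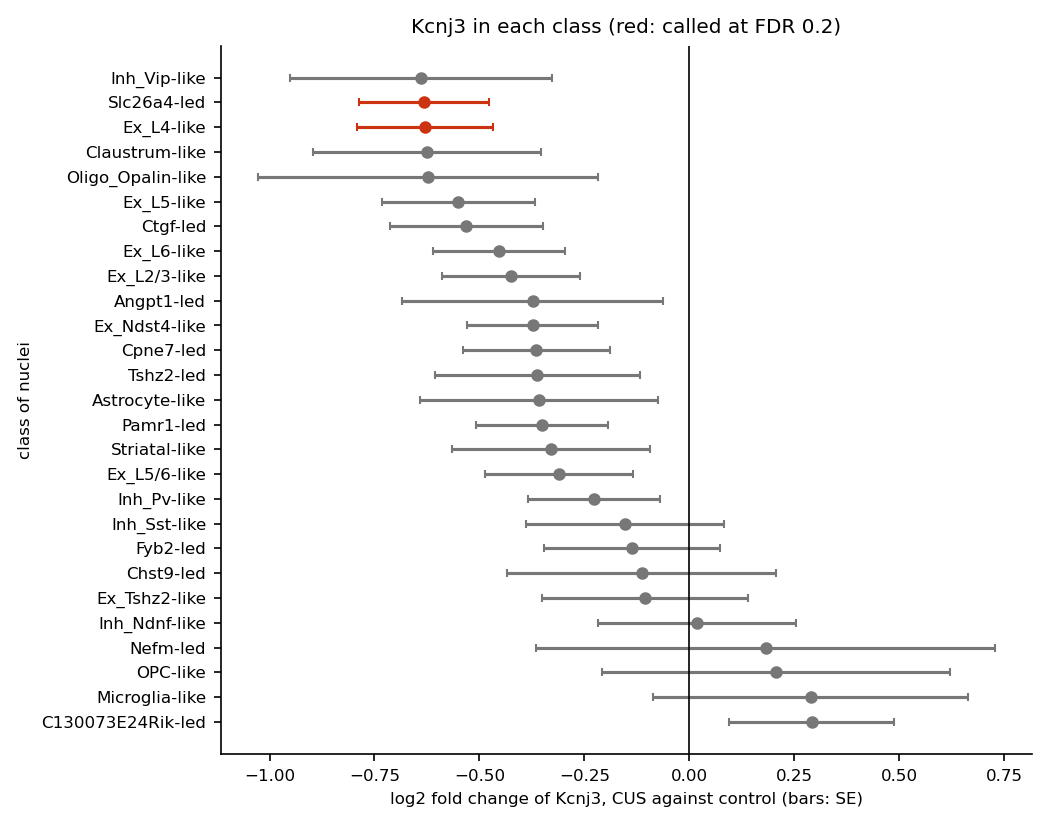
Log2 fold change of Kcnj3 (CUS against control, 4 mice each) in each of 27 classes of nuclei, with bars for the standard error, ordered from lowest to highest, red where the edgeR FDR was below 0.2. 22 classes lie left of zero, and the 2 in red are Slc26a4-led and Ex_L4-like.

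In the sum of excitatory nuclei Kcnj3 had 363, 505, 411 and 481 CPM in control and 227, 401, 354 and 308 in CUS mice. CUS replicate 2 overlapped the controls, and the log2 fold change was -0.45 (edgeR FDR 0.508). Without that mouse it was -0.56 and called (edgeR FDR 0.108), as were 12 of 36 members (33.3%) and 12.9% of all genes in the same fit. In the sum of cortical inhibitory nuclei it was 331 ± 50.7 and 290 ± 55.0 CPM (-0.20, edgeR FDR 0.935). The change in excitatory nuclei less that in inhibitory nuclei, on log2(CPM + 1), was -0.27 for Kcnj3 with an exact permutation p of 0.114 (two-sided, n = 4 each, adjusted 0.229 over 2 genes, smallest possible 0.0286) and 0.23 for Kcnip2 (exact p 0.229, adjusted 0.229), so neither difference passed. Each went the same way in 4 of 4 CUS mice against the control mean. Both genes were compared because they had been called in classes of the same mice, so this count is no separate support.

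Kcnip2 was tested in 13 classes and lay above zero in 11, and in 5 of them every CUS mouse was above the control mean. Its log2 fold change was 0.34 in excitatory nuclei (edgeR FDR 0.508, and 0.38 with an edgeR FDR of 0.198 without CUS replicate 2), 0.08 in cortical inhibitory nuclei (edgeR FDR 0.977) and 0.29 in bulk (33.5 ± 5.68 and 41.1 ± 1.63 CPM, edgeR FDR 0.101). Its Kv4 partner Kcnd2 lay at -0.29 in all nuclei (edgeR FDR 0.603) and -0.15 in bulk, and Kcnd3, another Kv4 pore, at 0.18 in all nuclei (edgeR FDR 0.614) and 0.42 in bulk (edgeR FDR 0.0579).

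Genes that work with potassium channels were listed apart, 38 in all, from Kv4 auxiliary subunits to GABA-B receptors and their KCTD and RGS partners. Of 36 tested in bulk 1 was called lower (2.78%, beside 2.13% of all genes) and 0 higher, with a median log2 fold change of 0.04 beside 0.01. The count is near that of all genes. The call was Adam23, a transmembrane protein that binds LGI1 in complexes around Kv1 channels. It had 311, 270, 242 and 234 CPM in control and 217, 214, 225, 202 and 195 in CUS mice, with no overlap, means of 264 ± 34.7 and 210 ± 11.9, a log2 fold change of -0.33 ± 0.08 (SE) and an edgeR FDR of 0.0453. Without 1 mouse its edgeR FDR ran from 0.0146 to 0.124, and the call was kept only without control replicate 3 or control replicate 4. The study already names Adam23 among the genes changed by CUS in these bulk data. The list of partners was chosen with earlier results known, so this call is no separate support.

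In all nuclei 26 of the 38 partners were tested and 0 called (edgeR), 3 of them at an unadjusted p under 0.05, and without CUS replicate 2 8 of 27 were called (29.6%, beside 16.2% of all genes), 5 lower and 3 higher. Over the classes there were 2 calls, and without CUS replicate 2 16 of 672 tests (2.38%, beside 1.19% of all tests) of 9 different partners. Both of the 2 calls were of Adam23: in Ex_L2/3-like nuclei it was 318 ± 30.7 and 223 ± 28.5 CPM (-0.52, edgeR FDR 0.0915) and in Ex_L4-like nuclei 385 ± 27.9 and 251 ± 42.7 (-0.63, edgeR FDR 0.133), beside 0.56% and 0.339% of all genes called lower there. In both classes all 4 CUS mice lay below the 4 control mice. Without 1 mouse the edgeR FDR ran from 0.0108 to 0.289 in Ex_L2/3-like nuclei, with the call kept only without CUS replicate 2 or control replicate 1, and from 0.0105 to 0.370 in Ex_L4-like nuclei, with the call kept only without CUS replicate 2.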

How the data were processed

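Groups and replicate numbers were taken from the sample titles. The authors aligned bulk nuclear RNA-seq reads with STAR to mm10, kept uniquely mapped reads and deposited counts of reads per gene, and for each nuclei mouse they deposited a table of UMI counts per gene and barcode. The annotation of the bulk counts and whether strand and introns were counted are not given in the sources used here. From these counts, nuclei were kept at 600 to 5000 genes, at a mitochondrial share of UMIs below 5% and at a Scrublet score of at most 0.2 (scanpy 1.11.5, 15.2% removed), then clustered with Seurat 5.3.0 (2000 variable genes without the members, 50 components, 20 neighbours, resolution 1). Clusters were named from marker lists, with cut-offs set after the clusters were seen: at least 3 markers 1.5-fold enriched, of which 2 among the 10 leading genes, or 1 with all markers enriched.

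CUS was compared with control by edgeR 4.0.16 (quasi-likelihood test, TMM, R 4.3.3) across all genes that passed the filter: filterByExpr in bulk, with an FDR of 0.05, and summed UMIs above 10% of the nuclei in each sum per mouse, with an FDR of 0.2. Gene names and spans are from the deposited files. The test was tested on simulated data. The members, gene lists and rules were chosen with earlier results of these data known. Named were members called anywhere, Kcnj3 in every class, the member of each family with the highest bulk CPM, the leading member of each named class, the 4 members per direction with the smallest bulk p where fewer were called, and called partners. Other members given with values (such as Kcnq3, Kcnd3, Kcnv1, Kcnh3 and Kcna2) were chosen after their values were seen. Some members are counted but not reported by name. Alternatives were the likelihood ratio test, DESeq2 1.42.0, no TMM, no filter, a replicate block, other nuclei filters and clusterings, and each mouse left out. The labels do not state that mice of a group were separate litters or cages, so p-values measure the spread between these mice.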

Additional observations from a re-analysis of the deposited data

Results flagged for a closer look

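In 3 of 76 groups of 4 or 5 mice, 1 mouse lay apart from the others by Dixon's test at 95%, which chance gives in about 1 of 20 groups. Kcnc2 was at 336 CPM in bulk control replicate 4, against 371 to 374 in the other control mice. Kcnip2 was at 70.3 CPM in all nuclei of control replicate 2, against 80.7 to 82.9. Kcnj9 was at 197 CPM in all nuclei of CUS replicate 1, against 128 to 135, and the mouse decides the sign of its change there.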

How the results depend on the processing

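In bulk, 3 members were called, and 9 with the likelihood ratio test, 12 with DESeq2, 5 without TMM factors, 7 without a filter and 0 to 14 without 1 mouse (0 without control replicate 2, CUS replicate 4 or CUS replicate 5, and 14 without control replicate 3). In all nuclei 0 were called under every alternative except the 10 without CUS replicate 2. Over the classes, 3 calls became 7 with the likelihood ratio test, 1 with DESeq2, 0 at resolution 0.6, 1 with 1000 genes per nucleus and 0 to 30 without 1 mouse (30 without CUS replicate 2). Of the partners, 1 was called in bulk, and 3 with the likelihood ratio test, 4 with DESeq2 and 0 to 6 without 1 mouse, and over the classes 2, and 0 to 16 without 1 mouse. Excitatory less inhibitory change ran from -0.34 to -0.17 for Kcnj3 and from 0.11 to 0.36 for Kcnip2, and the difference between long and shorter members from -0.39 to -0.13, without 1 mouse. Kcnj9 in all nuclei ran from -0.059 (without CUS replicate 1) to 0.18. The cause of these differences was not tested. DESeq2 gave no adjusted p for Kcnip2 in Ex_L4-like nuclei.

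Replicate numbers showed no uniform pairing of the mice: deviations of same-numbered mice correlated at 0.03, 0.23, 0.04 and 0.13 in bulk and 0.36, -0.07, 0.40 and -0.45 in nuclei. These correlations cannot show which mice shared a batch, and the study reports a profound effect of batch in its nuclei tests. With the replicate block 0 members were called in bulk, 0 in all nuclei and 10 in classes, and 0 partners in bulk and 6 in classes. Low counts limit the 14 untested members and the small classes.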
